A study of Rattus norvegicus with 70 samples.

Results

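The promoter regions with very high signal are autosomal regions around rat transcript starts, chosen by a deposited signal that averaged 200 or more in the 5 vehicle and water livers (MC_water) taken at partial hepatectomy. They number 1162 of 16329 autosomal regions (7.12%), out of 17174 regions in all. Because measured values chose them, every value in those 5 livers is given below as a description with no test. The signal counts reads of DNA captured by a methyl-CpG-binding protein (MBD sequencing, MethylMiner kit, SOLiD 4 reads of 50 bases), over a window of 5625 bp that begins 4500 bp before a transcript start and ends downstream of it. Outside the microRNA genes it therefore covers the upstream region, the promoter and usually the first exon. Each microRNA has a window of its own, placed by its listed start, and whether that window holds a promoter was not checked.

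The livers came from outbred Crj:CD(SD)IGS rats in a 2-stage carcinogenesis scheme, in which an initiating treatment was followed by promotion. The groups given an initiator and then 500 ppm phenobarbital in drinking water (PB) had received diethylnitrosamine, a DNA-alkylating liver carcinogen, at 3 mg/kg (DEN3_PB) or 30 mg/kg (DEN30_PB), thioacetamide at 45 mg/kg (TAA45_PB), methapyrilene at 100 mg/kg (MP100_PB) or acetaminophen at 1000 mg/kg (APAP1000_PB). The promoted control (MC_PB) received the vehicle, 0.5% methylcellulose, and then phenobarbital, and the water control (MC_water) received that vehicle followed by unmedicated water. Samples are from terminal euthanasia after 6 weeks of promotion (TE) and at partial hepatectomy after 1 week (PH), from 5 rats per condition and time, so the 7 conditions gave 70 libraries in 14 groups. All animals underwent the hepatectomy, so no TE group is free of surgery and regrowth. The initiation lasted 1 week for DEN30_PB and 1 or 2 weeks otherwise, so dose and length of treatment differ together between the DEN groups.

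Methyl-CpG-binding domains hold double-stranded DNA that carries methyl groups on cytosines of CpG dinucleotides. The amount captured from a window rises with both the share of its CpGs that are methylated and the number of methylated CpGs it holds, and a window without CpGs gives no signal even when nothing protects it from methylation. In adult tissues the promoters of germ-cell genes, one allele of imprinted genes and many promoters of genes for other tissues carry methylation, whereas promoters of genes in use are mostly free of it. In liver DNA the cells are mixed, so a change in methylation per cell and a change in the mix of cells cannot be told apart here.

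MicroRNA genes of the imprinted Dlk1 domain on chromosome 6 gave the 2 highest windows of all and several of the next. The mature microRNAs of the 6 highest among them are shown because these windows lead the set. They are from RefSeq (GRCr8, plus strand of chromosome 6), written 5′ to 3′, with the seed, bases 2 to 8, in capitals.
rno-miR-434-3p: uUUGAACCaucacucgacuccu
rno-miR-136-3p: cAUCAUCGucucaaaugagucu
rno-miR-539-3p: cAUACAAGgguaauuucuuuuc
rno-miR-127-3p: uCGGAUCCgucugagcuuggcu
rno-miR-381-3p: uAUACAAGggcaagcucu
rno-miR-487b-3p: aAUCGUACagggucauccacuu
A seed is the stretch by which a microRNA pairs with its target messages. The seeds of rno-miR-539-3p and rno-miR-381-3p are the same, AUACAAG. RefSeq gave 134 mature sequences for 81 of the microRNA windows in the set, with 129 different seeds, and only 4 seeds occurred more than once. Beside the one just named these were AAAGUGC of rno-miR-93-5p and rno-miR-106b-5p, then GGUUGUC of the 5p arms of Mir410, Mir494 and Mir496, and UGGAUAU of the 5p arms of Mir376b and Mir376c.

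The 5 highest protein-coding windows with a RefSeq promoter, and Cacnb2 as the one with most CGs among the 8 highest, are shown by their promoters, from 250 bases before to 50 bases after the start in RefSeq (GRCr8), each 300 bases long and written 5′ to 3′ along the gene, with every CG in capitals because CG is the dinucleotide that the capture reads. Asmt lies at chr12:21423287-21423586 on the minus strand. Odz3 lies at chr16:50260539-50260838 on the plus strand, and RefSeq now names it Tenm3. Adprhl1 lies at chr16:82985105-82985404 on the plus strand. Actl7b lies at chr5:76242078-76242377 on the minus strand. Zfp161 lies at chr9:116779850-116780149 on the plus strand, where RefSeq names it Zbtb14. Cacnb2 lies at chr17:82472965-82473264 on the plus strand.
Asmt: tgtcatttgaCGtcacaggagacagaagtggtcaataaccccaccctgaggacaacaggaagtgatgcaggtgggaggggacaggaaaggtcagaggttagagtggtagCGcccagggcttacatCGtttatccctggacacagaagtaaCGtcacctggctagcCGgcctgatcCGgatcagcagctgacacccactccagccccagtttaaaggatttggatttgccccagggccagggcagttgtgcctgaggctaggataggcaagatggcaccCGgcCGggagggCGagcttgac
Odz3: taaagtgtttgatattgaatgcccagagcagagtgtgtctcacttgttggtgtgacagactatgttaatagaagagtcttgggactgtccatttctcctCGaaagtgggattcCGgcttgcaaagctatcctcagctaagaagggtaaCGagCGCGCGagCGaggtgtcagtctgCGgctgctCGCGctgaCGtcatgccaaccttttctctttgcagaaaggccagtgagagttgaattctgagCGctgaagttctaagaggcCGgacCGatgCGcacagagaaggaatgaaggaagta
Adprhl1: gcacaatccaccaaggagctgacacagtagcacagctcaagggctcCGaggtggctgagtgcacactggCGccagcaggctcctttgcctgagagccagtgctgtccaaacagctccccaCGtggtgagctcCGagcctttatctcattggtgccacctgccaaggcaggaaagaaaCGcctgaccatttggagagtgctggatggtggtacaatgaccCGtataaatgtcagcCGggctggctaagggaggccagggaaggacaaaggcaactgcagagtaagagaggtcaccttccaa
Actl7b: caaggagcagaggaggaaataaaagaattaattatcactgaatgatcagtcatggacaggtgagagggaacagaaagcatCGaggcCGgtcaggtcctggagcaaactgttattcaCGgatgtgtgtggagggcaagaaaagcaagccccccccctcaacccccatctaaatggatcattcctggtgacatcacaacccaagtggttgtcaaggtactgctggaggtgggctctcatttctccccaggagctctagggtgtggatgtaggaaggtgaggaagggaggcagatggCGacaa
Zfp161: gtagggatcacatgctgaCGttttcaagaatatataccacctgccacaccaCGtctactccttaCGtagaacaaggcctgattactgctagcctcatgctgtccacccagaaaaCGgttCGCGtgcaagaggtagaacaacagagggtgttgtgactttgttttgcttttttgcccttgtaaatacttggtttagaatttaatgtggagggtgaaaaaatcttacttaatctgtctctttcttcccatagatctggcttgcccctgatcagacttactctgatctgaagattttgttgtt
Cacnb2: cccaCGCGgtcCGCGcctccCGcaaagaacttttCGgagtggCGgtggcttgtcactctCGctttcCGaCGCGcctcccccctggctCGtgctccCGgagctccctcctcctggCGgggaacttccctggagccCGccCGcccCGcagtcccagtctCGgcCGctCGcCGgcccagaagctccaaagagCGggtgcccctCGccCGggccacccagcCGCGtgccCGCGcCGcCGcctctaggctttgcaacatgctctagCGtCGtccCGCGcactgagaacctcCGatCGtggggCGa
These promoters differ widely in CG content. Actl7b has 4 CGs in 300 bases, Zfp161 6, Adprhl1 7, Asmt 9, Odz3 15 and Cacnb2 37, so the promoters matched to very high windows run from CG-poor to CG-rich. The match was by gene or transcript name, and the genome build of the windows is not given. Whether the 300 bases lie within the measured window was therefore not checked. Olr1108 and Jmjd8, which rank between Zfp161 and Cacnb2 and are not shown, have 9 and 8. Only 873 of the 1162 regions (75.1%) matched a RefSeq promoter and none of the microRNA windows did, so a comparison of CpG content over the whole set is void.

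The 17174 regions held 933037 to 1796406 recovered reads per library, and the median member held 138 to 373.5 reads, so counting error was small, with a median of 0.09 on the log2 scale per library. The number of reads behind the smallest member in a library was 23 to 171.

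Some libraries stood apart at these regions as a whole. In 9 libraries, called weakly enriched here, under 1% of the regions had no read, so nearly every window of the table held some. They are replicate 5 of MC_PB, replicate 3 of DEN30_PB, replicate 4 of TAA45_PB, replicate 3 of MP100_PB and replicate 3 of APAP1000_PB at TE, and replicate 5 of MC_water, replicates 3 and 4 of DEN30_PB and replicate 5 of APAP1000_PB at PH. The very high regions took 18.1% to 21.5% of region reads in these 9 libraries (median 21.03%), against 23.6% to 29.1% in the other 61 (median 26.4%). The median member had a signal of 149.8 to 211.8 in the 9, against 249.1 to 382.8 in the 61, with no overlap, while the median of all regions was 49.6 to 58.2 in the 9, against 44.8 to 70.6 in the 61. The total to which the authors scaled each of libraries 61 to 70, replicate 5 of every initiator group, equals that of a library among 1 to 20. The median member stood at a median of 361.4 in the 9 of those 10 that are not weakly enriched, against 279.7 to 300.2 in the blocks of libraries 1 to 20, 21 to 40 and 41 to 60, so fits were also run without them. Whether the scaling of these 10 is right was not tested.

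**Figure D1:**
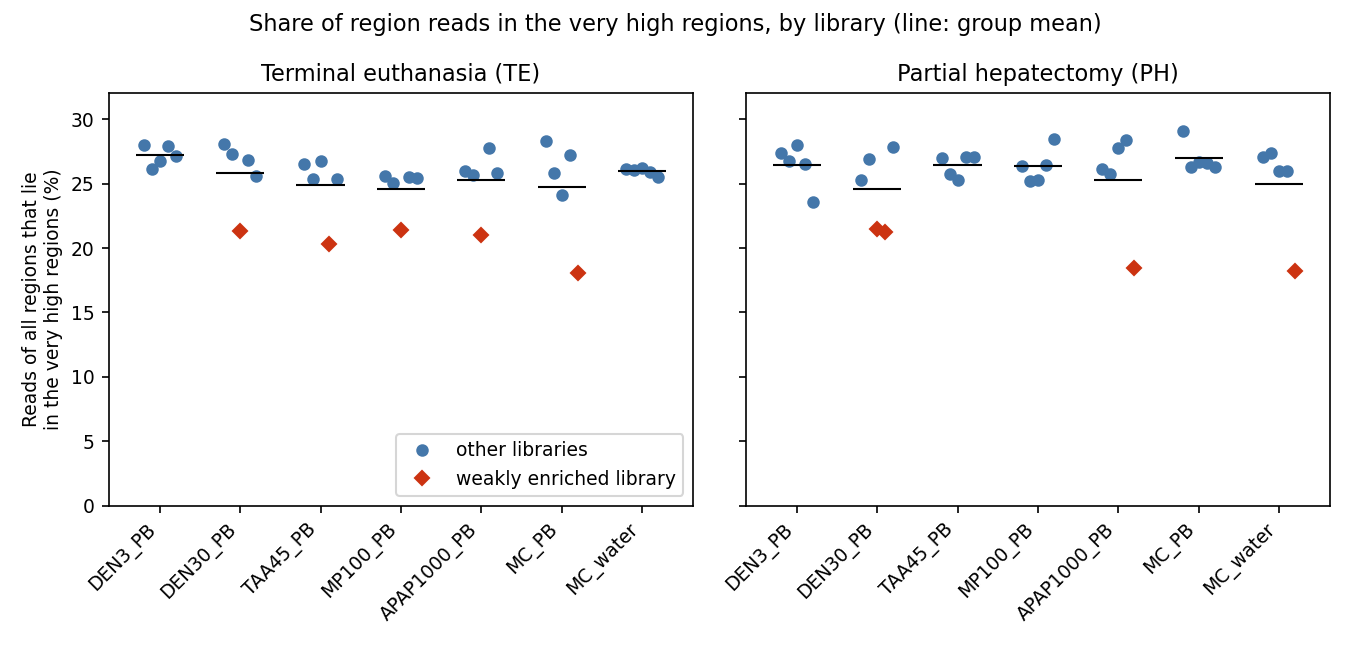
Share of the reads of all 17174 regions that fell in the very high regions (y axis, percent), 1 point per library by group, TE on the left and PH on the right, with a line at the group mean. The 9 weakly enriched libraries (diamonds) lie at 18.1% to 21.5%, below all 61 others, which start at 23.6%.

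Asmt, the last enzyme of melatonin synthesis, had the highest signal outside the microRNA cluster, averaging 744.4 over the 65 libraries that the rule did not use. Odz3 is a teneurin, a cell-adhesion protein of neurons, and averaged 732.9. Adprhl1, a heart-expressed relative of the ADP-ribosylhydrolases, averaged 667.1. The testis-specific actin relative Actl7b averaged 662.4, Zfp161, a zinc finger repressor, 638.5 and Cacnb2, a subunit of voltage-gated calcium channels, 611.8. Other genes among the highest 20 were Olr1108, an odorant receptor, at 632.4, Jmjd8, a jumonji-domain protein, at 621.6, Cdnf, a neurotrophic factor, at 601.2, Gnaz, a G-protein alpha subunit, at 587.4, Trpc7, a cation channel, at 580.6 and Cyba, a subunit of NADPH oxidase, at 561.7.

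Asmt in single libraries shows the level and its spread. It had 744.7, 842.0, 852.7, 934.5 and 928.6 in DEN3_PB livers at TE, against 1076.6, 745.3, 613.3, 863.4 and 382.2 in MC_PB livers at TE. The DEN3_PB values lie inside the range of the MC_PB values, whose lowest library is one of the 9 weakly enriched libraries. Over all 16329 autosomal regions the median of the mean over 65 libraries was 56.2.

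All 1162 regions passed the filter on low values. Their signal in the 5 libraries of the rule ran from 200.1 to 779.8 with a median of 252.1, and over the other 65 libraries from 192.5 to 855.6 with a median of 279.6. Just inside the threshold stood Defb23, a defensin, at 200.06, Map4k2, a kinase, at 200.17 and Dbp, a circadian transcription factor, at 200.18. Just outside stood LOC691286 at 199.9, the T-cell coreceptor Cd4 at 199.5 and Vars, a valyl-tRNA synthetase, at 199.5. The edge is thus no natural gap in the values.

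The windows are not 1162 separate places. They take up 1147 distinct positions, since several transcripts share a start, 154 overlap another member, and merging those within 50 kb leaves 928. Chromosome 20 had the highest share of its regions in the set, 80 of 537 (14.9%), followed by chromosome 12 with 67 of 457 (14.7%) and chromosome 6 with 76 of 666 (11.4%). Chromosome 2 had the lowest, 43 of 1018 (4.22%). A total of 17 runs of at least 4 members spaced by no more than 50 kb hold 122 members.

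The run with most members was part of the microRNA cluster. Chromosome 6 had 41 members among 52 microRNA regions between 134136861 and 134429373 in the coordinates of the files (genome build not given in the sources used here). In mouse this domain carries Dlk1, a Notch ligand relative expressed from the paternal allele, and a long series of microRNAs expressed from the maternal allele. Neighbouring windows overlap, and the 41 members merge into 4 stretches, so they are far fewer than 41 independent measurements. The 41 members averaged 237.5 to 855.6 over the 65 libraries (median 402.7), the 11 other microRNA windows 51.8 to 220.3, and Dlk1 itself 48.6.

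Within the cluster 2 stretches stood highest. The first held Mir434 at 855.6, Mir136 at 770.1, Mir127 at 711.4 and Mir433 at 517.1, which in mouse lie antisense to Rtl1, a gene derived from a retrotransposon. The second held Mir539 at 732.0, Mir381 at 692.3 and Mir487b at 680.8. Mir758, Mir323 and Mir329 formed a lower shoulder at 530.2, 522.3 and 513.8, and Mir541 near the far end had 493.5.

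**Figure D2:**
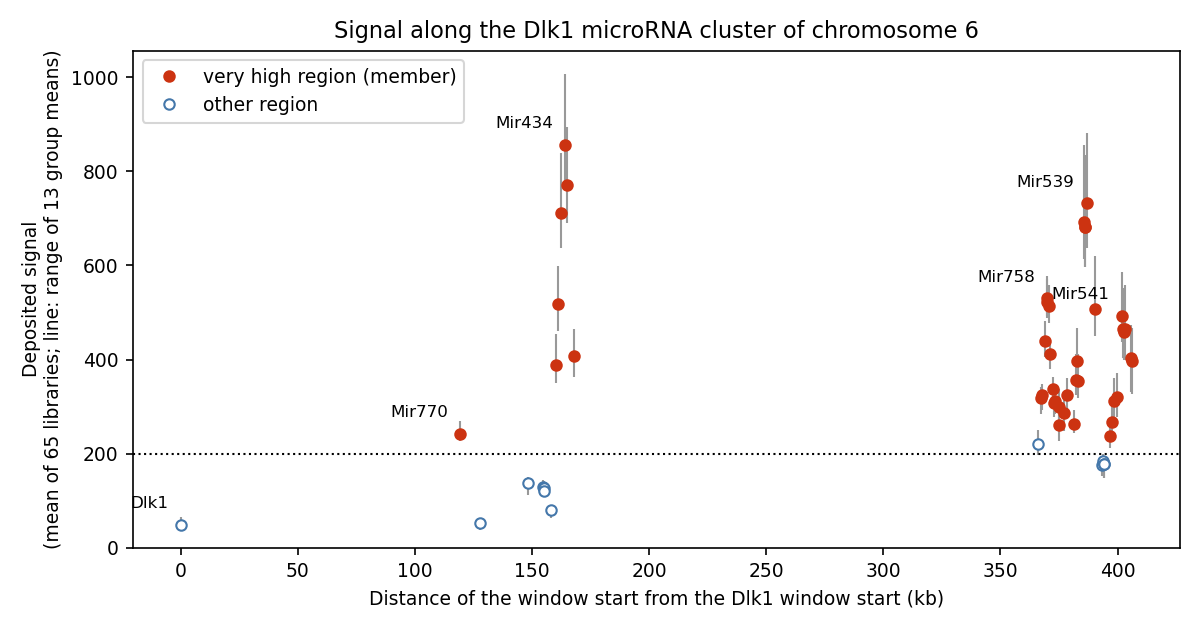
Deposited signal along the Dlk1 microRNA cluster: the x axis is the distance of each window from the Dlk1 window in kb, the y axis the mean over the 65 libraries that the rule did not use, and the vertical line the range over 13 group means. Filled points are members and open points other windows; the dotted line marks 200. Mir434 at 855.6 and Mir539 at 732.0 top 2 separate stretches, and Dlk1 lies at 48.6.

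Mir434 was high in every group. It had 960.4, 837.3, 1007.1, 1102.5 and 1130.6 in DEN3_PB livers at TE, against 997.3, 854.7, 735.9, 887.6 and 401.7 in MC_PB livers at TE. The groups overlap, and the MC_PB library at 401.7 is weakly enriched. Mir539 had 819.7, 937.3, 764.8, 904.8 and 978.5 in DEN3_PB livers at TE, against 819.9, 707.3, 555.5, 793.1 and 310.1 in MC_PB livers at TE, again with overlap. Group means of Mir434 outside the rule ran between 775.5 and 1008.

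Other runs were made of gene families. On chromosome 10 the keratin genes Krt24, Krt25, Krt26, Krt27, Krt28, Krt10 and Krt12 filled all 7 windows of a run between 88185076 and 88333259. On chromosome 18, 8 gamma protocadherins, neuronal adhesion proteins each with its own promoter, lay in a run of 11 windows, led by Pcdhga5 at 455.7. On chromosome 7 the odorant receptors Olr1104, Olr1105, Olr1106, Olr1107, Olr1108 and Olr1111 stood with LOC680590 and Lalba, the milk protein alpha-lactalbumin. On chromosome 20, in the histocompatibility region, a run held Slc44a4, Ehmt2, Ng35, C2, Skiv2l, Rdbp, Stk19, Dom3z and Tnxa-ps1, and on chromosome 12 a run held Mir25, Mir93, Mir106b and Ap4m1. A run on chromosome 1 held Taar7b, Taar6, Taar4, Taar3 and Taar1, receptors for trace amines.

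Counted by gene list, the set held many members of some families and very few of others. The lists are descriptive and were chosen with values of these data known, so they carry no test and are read against the 7.12% of all autosomal regions. Of 51 keratin regions 16 (31.4%) were members, with Krt26 at 383.1, Krt15 at 372.6 and Krt12 at 341.9 leading. Keratins are the structural proteins of epithelia, and those 3 are known for hair follicle, skin and cornea.

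Of 57 regions of germ-cell genes 16 (28.1%) were members. Tktl2, a testis transketolase, averaged 457.2 over the 65 libraries, Acr, the sperm protease acrosin, 402.2, and Sycp1, a backbone protein of the synaptonemal complex, 372.7. Dazl, an RNA-binding protein of germ cells, averaged 356.5, Piwil1, a piRNA partner, 350.1 and Hils1, a spermatid histone-like protein, 340.7. Dazl had 381.2, 390.4, 335.4, 434.9 and 535.4 in DEN3_PB livers at TE, against 343.0, 235.4, 266.6, 379.3 and 170.5 in MC_PB livers at TE. The DEN3_PB values lie toward the upper end, the groups overlap, and the lowest MC_PB library is the weakly enriched one.

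Of 41 regions of imprinted genes 9 (21.95%) were members, from 7 genes. H19, a long non-coding RNA expressed from the maternal allele, averaged 499.9, Nnat, a neuronal membrane protein, 407.8, and Gnas, the stimulatory G-protein alpha subunit, 377.2. Zrsr1, a splicing-factor relative, averaged 359.4, Nap1l5 356.5, Plagl1, a zinc finger factor, 270.2 and the growth-factor receptor Igf2r 221.9. H19 had 480.2, 476.3, 681.0, 661.3 and 602.7 in DEN3_PB livers at TE, against 498.7, 506.4, 461.2, 623.7 and 298.7 in MC_PB livers at TE. The groups overlap.

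Of 331 microRNA regions 87 (26.3%) were members, a list added after the values were seen, and 41 of the 87 lie in the chromosome 6 cluster. Protocadherins gave 10 of 48 regions (20.8%), and other receptors coupled to G proteins gave 17 of 110 (15.5%), led by Gpr65, a proton sensor, at 497.9 and Drd1a, a dopamine receptor, at 483.3. Ion channels gave 23 of 231 (9.96%) and zinc finger genes 14 of 214 (6.54%).

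Odorant receptors gave only 11 members of 1194 regions (0.921%), and the median odorant receptor window averaged 8.53 over the 65 libraries. Vomeronasal receptors gave 1 of 177. Cytochrome P450 genes, which metabolize drugs and steroids in liver, gave 1 of 71, Cyp4f17. None of the 29 regions of hepatocyte genes was a member, and the highest averaged 161.9 over the 65 libraries. None of 16 regions of stellate-cell genes was a member either, though the highest averaged 219.0 over those libraries.

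Markers of the blood-derived and vessel cells of liver gave 6 members, at shares below or above the 7.12%. Lymphocyte genes gave 4 of 31 regions (12.9%), from Cd247, a T-cell receptor chain, at 483.2, Cd27, a costimulatory receptor, at 323.6 and Prf1, perforin, at 275.2. Macrophage genes gave 1 of 15 (6.67%), the lysozyme Lyz2 at 214.1, and endothelial genes 1 of 12 (8.33%), the adhesion molecule Icam2 at 256.1. These are levels of DNA capture, so they say nothing of how many such cells a liver held. Tumour suppressors gave 3 of 34, which were Sfrp5, a Wnt antagonist, at 399.2, the death kinase Dapk1 at 259.3 and Rassf1 at 259.2.

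**Figure D3:**
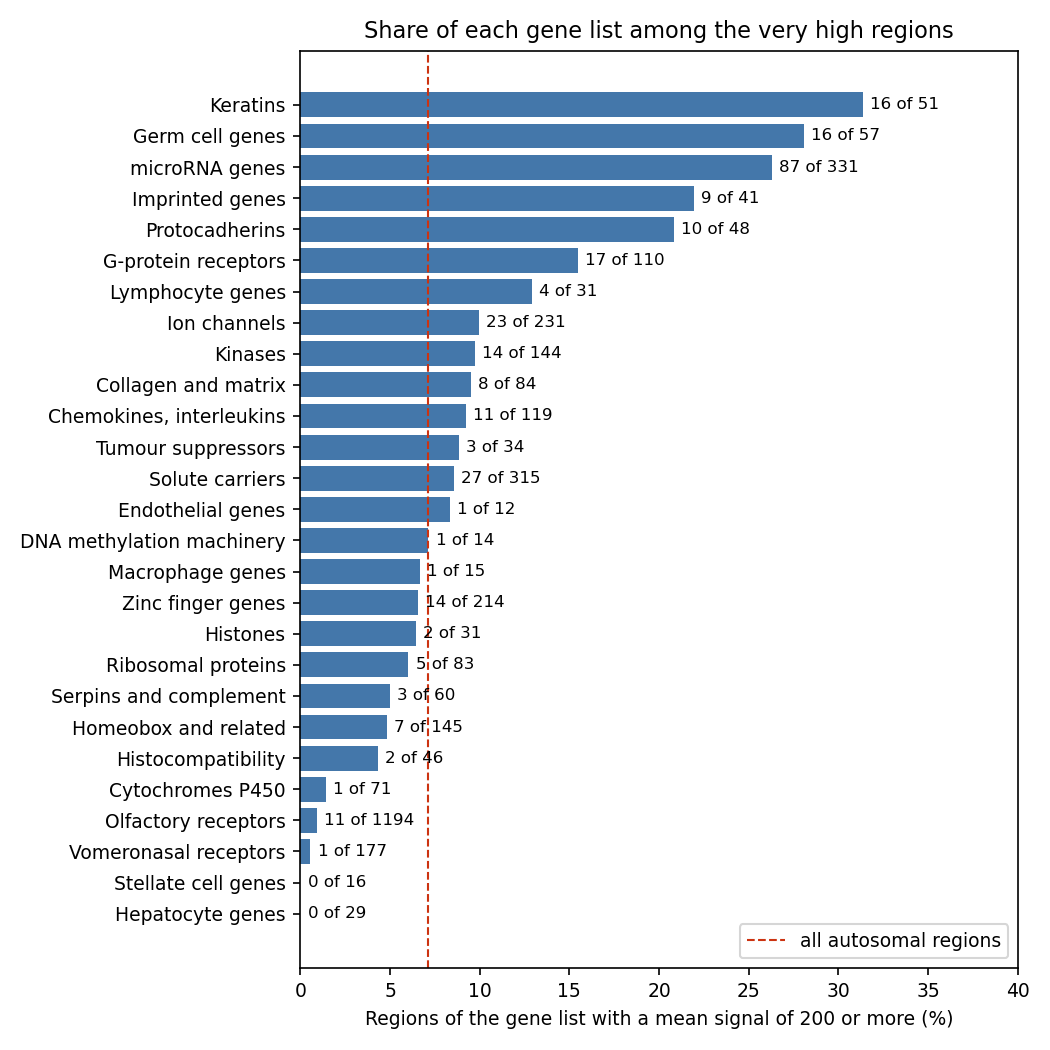
Share of the regions of each gene list that are very high (x axis, percent), with the counts at the end of each bar. Keratins stand at 31.4% and germ-cell genes at 28.1%, odorant receptors at 0.921% and hepatocyte genes at 0, and the dashed line marks the 7.12% of all autosomal regions.

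The set was stable over groups. Of the 1162 regions 1024 (88.1%) averaged 200 or more in all 13 groups outside the rule, 57 in 12 of them, 69 in 7 to 11 and 12 in 1 to 6. No region fell below 200 in every other group. The number at 200 or more ran from 1093 in DEN30_PB at PH to 1161 in DEN3_PB at TE, and the top 1162 autosomal regions of each other group contained 89.9% to 91.7% of the set. Without the weakly enriched libraries the number at 200 or more was 1153 in DEN30_PB at PH and ran from 1133 in MC_water at TE to 1161 in DEN3_PB at TE. The libraries of the rule hold 1 weakly enriched library, replicate 5 of MC_water at PH, and without it 1456 regions would reach the threshold, among them all 1162. Outside the set, 346 autosomal regions averaged 200 or more over the 65 libraries.

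The lists were also described by group. The median microRNA member ran from 327.7 in MC_PB at TE to 419.1 in DEN3_PB at TE over the 13 groups, the median germ-cell member from 256.1 in TAA45_PB at TE to 331.6 in DEN3_PB at TE and the median keratin member from 236.7 in MC_PB at TE to 285.5 in TAA45_PB at PH. Across all distinct places of the set the median ran from 262.0 in MC_PB at TE to 315.5 in DEN3_PB at TE. No test compares a list with the set. The SD of log2 group means over the 13 groups was 0.12 in the median member, with a range of 0.06 to 0.68, against 0.17 in the median of all tested regions. Regions with a mean of 100 to 200 in the libraries of the rule had the same median, 0.12. After each library was centred on the median of the members, the medians were 0.08 in members, 0.10 at 100 to 200 and 0.18 in all tested regions. That centring takes out variation that the members share, so by construction it favours the members. The spread between livers of a group was larger, 0.33 in the median member, 0.31 at 100 to 200 and 0.38 in all tested regions. After the same centring it was 0.17 in members, 0.24 at 100 to 200 and 0.41 in all tested regions.

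The steadiest members were Spats1, a spermatogenesis-associated gene, Kctd4, Cacng2, a subunit that regulates glutamate receptors, Pcgf2, a Polycomb component, and Mir3579 of the chromosome 6 cluster. Spats1 had 215.6, 252.8, 227.0, 221.9 and 203.1 in DEN3_PB livers at TE, against 247.8, 181.9, 236.2, 245.5 and 140.8 in MC_PB livers at TE. The groups overlap, and the group means over the 13 groups differed by an SD of 0.06 on the log2 scale. The least steady were Fam111a, Recql, Ctrb1, Gp1bb and Golt1b, which are described further on.

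None of the very high regions passed the test in any comparison of an initiator with the promoted control. limma's moderated test on log2(signal + 1), with Benjamini-Hochberg adjustment over 15809 regions at PH and 16008 at TE, called 0 members at 0.05 for DEN3_PB, DEN30_PB, TAA45_PB, MP100_PB and APAP1000_PB at either time, and also 0 for MC_PB minus MC_water at TE. Among all regions tested the called share was 0% in each of these 11 contrasts. The F tests over groups called no member either, beside 0.00633% of all regions at PH and 0% at TE. Between 0 and 154 members had an unadjusted p under 0.05 in these tests. The 154 (13.3%) were in DEN3_PB minus MC_PB at TE, beside 8.51% of all regions. In every other test of this fit the share was lower in members than in all regions. It was at most 2.32%, beside 7.64%, in DEN30_PB minus MC_PB at PH. The member counts depended on the setting and were higher in each of those tests with quantile normalization. MP100_PB minus MC_PB at TE then had 55 members, against 0, and DEN3_PB minus MC_PB at PH 39, against 1. Shares over all regions with quantile normalization are not reported here. edgeR and DESeq2 on the recovered reads called 0 members as well.

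The member nearest to a call was Cacnb4, a calcium channel subunit, in DEN3_PB livers at TE. It had 215.6, 316.3, 422.3, 272.3 and 329.1 in DEN3_PB livers, against 223.1, 228.2, 213.9, 216.7 and 132.7 in MC_PB livers at TE. The lowest DEN3_PB value lies among the MC_PB values and the other 4 lie above them all. The log2 difference was 0.61 (SE 0.20), with an adjusted p of 0.58 in limma's test, the smallest of any member in these contrasts.

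Rcvrn, the photoreceptor calcium sensor recoverin, came nearest in DEN30_PB at PH. It had 204.2, 190.3, 173.6, 236.9 and 284.4 in DEN30_PB livers, against 411.8, 307.8, 315.8, 230.1 and 316.0 in MC_PB livers at PH. The groups overlap, and the log2 difference was -0.53 (SE 0.21), with a limma adjusted p of 0.59. Ctrb1, the pancreatic zymogen chymotrypsinogen B, came nearest in APAP1000_PB at PH, with 131.1, 95.2, 241.0, 103.2 and 92.1 in APAP1000_PB livers, against 299.1, 223.4, 225.7, 238.9 and 222.9 in MC_PB livers at PH. The APAP1000_PB library at 241.0 lies among the MC_PB values and the other 4 lie below them, and the log2 difference was -0.96 (SE 0.28), with a limma adjusted p of 0.99.

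Ptbp2, a neuronal splicing regulator, was the one whose groups did not overlap among the members nearest to a call. It had 252.7, 295.7, 260.6, 281.0 and 252.8 in TAA45_PB livers at PH, against 220.1, 178.9, 202.4, 223.6 and 211.6 in MC_PB livers at PH. The log2 difference was 0.37 (SE 0.17), with a limma adjusted p of 1.0, so it was not called. In the authors' deposited table its p for the same comparison was 0.000794, the lowest of any member there. In the remaining contrasts of an initiator with MC_PB the smallest p fell on Fam111a, Tap2, Enpp5, Pcdhgb7 and Zbtb22, none with an adjusted p under 0.99.

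As a set the regions shifted in 1 direction in some contrasts, and the shift moved with the weakly enriched libraries. In DEN3_PB minus MC_PB at TE the median member differed by 0.32 on the log2 scale, beside 0.09 over all regions, and 1156 of 1162 members lay above 0. At an unadjusted p under 0.05, 154 members were higher and none lower, beside 5.59% of all regions higher. In either direction, members under that p numbered 88 without the weakly enriched libraries, 96 with edgeR, 145 with DESeq2 and 56 with quantile normalization. Their directions and the shares over all regions in those settings are not reported here. In the authors' deposited table a total of 77 members (6.63%) had a p under 0.05 in that comparison, all of them higher, beside 4.31% of all regions. MC_PB at TE holds a weakly enriched library and DEN3_PB at TE none. Without the 9 weakly enriched libraries the median was 0.14, and with quantile normalization, which gives all libraries the same distribution, it was 0.02. Most members hold the top ranks in every group, so quantile normalization brings their median near 0 in any contrast by construction.

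The same held in other contrasts. In DEN30_PB minus MC_PB at PH the median member differed by -0.19 with all libraries, by 0.06 without the weakly enriched ones, of which DEN30_PB holds 2, and by -0.01 with quantile normalization. In APAP1000_PB minus MC_PB at PH the values were -0.18, -0.03 and -0.01. In MC_PB minus MC_water at TE they were -0.11, 0.08 and -0.01. DEN30_PB and APAP1000_PB at TE, where both groups of each contrast hold a weakly enriched library, had 0.17 and 0.14 with all libraries and 0.13 and 0.10 without the weakly enriched ones. Beside these, the medians over all regions were 0.07 and 0.11 in either setting. The part of enrichment in these shifts was not tested beyond this, and the 5 contrasts at each time share the MC_PB libraries. Replicate 5 of every initiator group belongs to the last block of libraries, whose scaling was not checked, and MC_PB holds no library of that block. The median member stood higher in that block, as given above. At TE its libraries stayed in the fits without the weakly enriched ones. Set medians without that block are not reported here, so its part in the shifts of initiator groups against MC_PB was not tested.

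**Figure D4:**
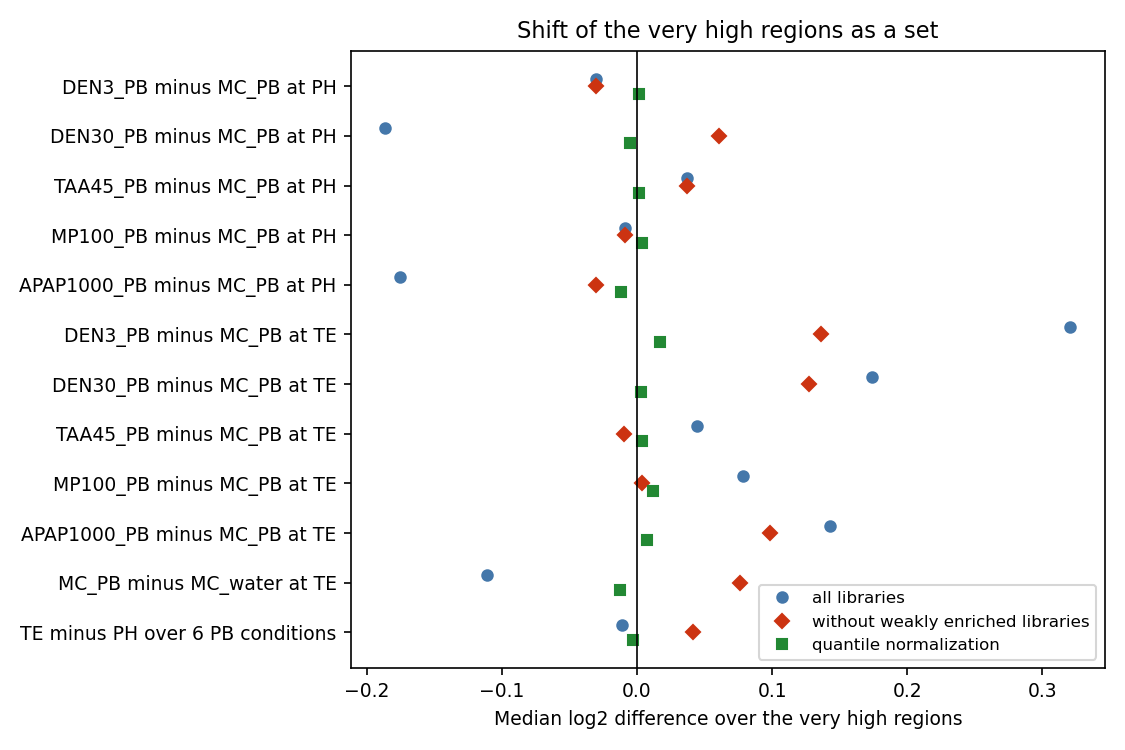
Median log2 difference over the 1162 very high regions (x axis) for each contrast, with all libraries (circles), without the 9 weakly enriched libraries (diamonds) and with quantile normalization (squares). With all libraries the medians run from -0.19 to 0.32. With quantile normalization all lie within 0.02 of 0, which that normalization brings about by construction for regions at the top of each library.

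Over time the median member moved in opposite directions in different conditions. TE minus PH was -0.20 on the log2 scale in MC_PB, -0.19 in TAA45_PB and -0.11 in MP100_PB, against 0.16 in DEN30_PB, 0.15 in DEN3_PB and 0.12 in APAP1000_PB. Without the weakly enriched libraries these medians were -0.02, -0.06 and 0.00, against 0.05, 0.15 and 0.12. Over all regions, with all libraries, they were 0.01, -0.05 and 0.06, against 0.03, 0.08 and 0.14. The shift in APAP1000_PB was thus no larger in the members than in all regions, which had 0.18 without the weakly enriched libraries. In TE minus PH over the 6 phenobarbital conditions the median member thus averaged out at -0.01, beside 0.04 over all regions. The test called 1 member, Gp1bb, of 11 regions called among 16385 (0.0671%). Gp1bb is the beta chain of glycoprotein Ib, the platelet receptor for von Willebrand factor, and its window lies at 84365295 to 84370920 on chromosome 11 in the coordinates of the files.

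Gp1bb had a lowest, median and highest signal of 153.3, 291.4 and 413.9 in the 30 TE livers, against 122.8, 227.8 and 494.0 in the 30 PH livers. The groups overlap widely, and the mean was 307.1 ± 68.4 at TE and 238.0 ± 75.8 at PH (SD, n = 30 each). The log2 difference was 0.39 (SE 0.09), with a limma adjusted p of 0.048, and the mean was higher at TE in 6 of 6 conditions. It was largest in DEN3_PB, where Gp1bb had 243.7, 411.6, 334.3, 281.2 and 350.8 at TE, against 220.1, 224.8, 141.7, 133.7 and 220.0 at PH, with no overlap. In TAA45_PB the means were 307.2 at TE and 306.7 at PH.

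The Gp1bb call depended on the setting. The adjusted p was 0.080 with no filter on low values and 0.077 without libraries 61 to 70, and Gp1bb stayed called in 27 of 70 fits that left out 1 library each. It was 0.0017 without the weakly enriched libraries, and 0.0036 with the replicate number blocked within each condition, an alternative added after seeing the data.

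A small number of members differed strongly between livers of the same group. The median of 1147 places had an SD of 0.17 on the log2 scale within the phenobarbital groups at PH, and 8 places exceeded 0.4. Each library was first centred on the median of the members. The 10 places with the largest SD, a choice made after the values were seen, carry Fam111a, Recql, Golt1b, Srp72, Mrps34, Ctrb1, Tap2, LOC301165, Enpp5 and Snx3. Recql and Golt1b have overlapping windows, and another Srp72 entry exists on chromosome 14, so reads of Srp72 may be shared between copies.

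Fam111a, a serine protease that acts at replication forks, varied most. It had 37.7, 321.0, 91.2, 38.04 and 925.8 in replicates 1 to 5 of MC_PB at TE, against 27.4, 318.9, 89.0, 30.5 and 650.8 in replicates 1 to 5 of MC_PB at PH. Replicates 1, 3 and 4 were low and replicates 2 and 5 high at both times. In DEN30_PB it had 346.2, 45.6, 873.4, 28.99 and 423.3 at TE, against 426.4, 43.1, 860.2, 63.2 and 289.5 at PH, with replicates 2 and 4 low at both times. In DEN3_PB no library was low, with 313.5, 772.6, 308.8, 677.5 and 571.3 at TE, against 306.4, 682.0, 228.5, 612.7 and 468.9 at PH.

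At these places libraries of a condition with the same replicate number were thus closer at the 2 times, by the median, than libraries with different numbers. For Fam111a the median absolute log2 difference between a TE and a PH library of a condition was 0.24 over 30 pairs with the same number, against 1.54 over 120 pairs with different numbers. It was 0.36 against 0.92 for Recql, a RecQ DNA helicase, 0.32 against 0.85 for Srp72, a signal recognition particle protein, and 0.25 against 0.47 for Ctrb1. For Tap2, a peptide transporter of antigen presentation, the values were closest, 0.38 against 0.46. The TE library nearest to a PH library, among the 5 of its condition, had the same number in 15 of 30 cases for Fam111a. That count was 11 for Recql, 11 for Srp72, 10 for Ctrb1 and 9 for Tap2. The labels do not say whether same-numbered libraries come from the same rat, and these 10 places were chosen for their spread, so the values are a description with no test.

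Recql showed 1 high library in some groups and several in others. It had 610.7, 111.7, 90.2, 202.9 and 114.4 in MC_PB at TE, against 748.8, 178.9, 148.4, 148.3 and 164.6 in MC_PB at PH, with replicate 1 high at both times. In MP100_PB it had 496.7, 151.2, 548.4, 448.1 and 91.6 at TE, against 464.4, 95.7, 707.4, 575.1 and 78.9 at PH, with replicates 2 and 5 low at both times. MC_water did not follow this throughout, since its replicate 4 had 395.5 at TE, against 56.8 at PH.

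Over the 30 most variable places, a TE library of the same number was the best match of a PH library of its condition in 31 of 35 cases by correlation, and over all members in 29 of 35. The exceptions among the 30 places were replicate 4 of MC_water, replicates 1 and 5 of DEN3_PB and replicate 5 of APAP1000_PB.

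**Figure D5:**
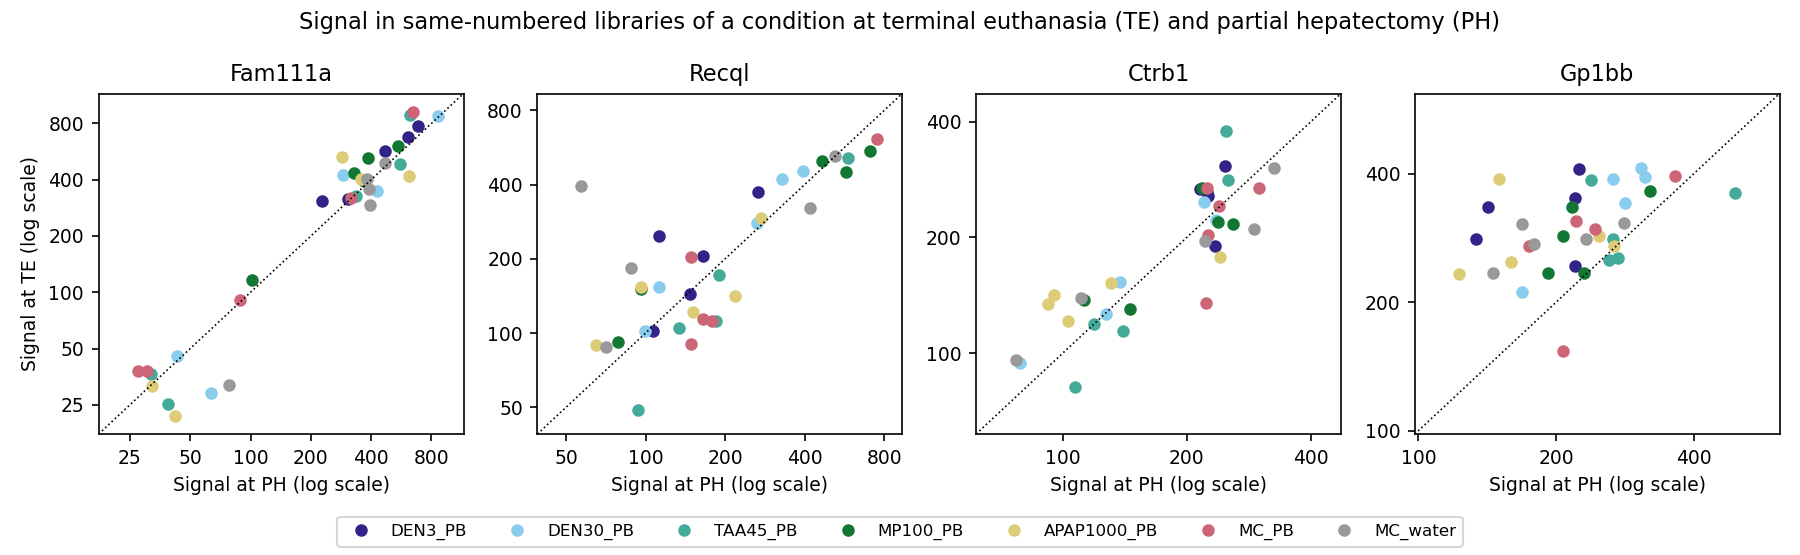
Signal of Fam111a, Recql, Ctrb1 and Gp1bb in same-numbered libraries of a condition at TE (y axis) and PH (x axis), both on log scales, 1 point per pair coloured by condition, with the line of equal signal. Fam111a pairs keep close to the line from about 25 to about 900, whereas most Gp1bb pairs, 26 of 30 in the phenobarbital conditions, lie above it.

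Some members with the smallest p in a contrast were among these variable places. Fam111a had the smallest p of the set in DEN3_PB minus MC_PB at PH with a log2 difference of 1.94 (SE 0.69) and a limma adjusted p of 1.0, and its 5 MC_PB values at PH ran from 27.4 to 650.8. Ctrb1, Tap2 and Enpp5, with adjusted p-values of 0.99 or more, are likewise among the 10 most variable places, whereas Cacnb4, Rcvrn and Ptbp2 are not.

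Peaks from the authors' deposited list compare DEN 30 mg/kg with phenobarbital alone, at times named 5w and 11w there and taken here as PH and TE. At the first time 75 members (6.45%) held a peak listed as higher in DEN 30 mg/kg, beside 5.52% of all autosomal regions, and 5 (0.430%) a peak listed as lower, beside 0.398%. At the second time 10 members (0.861%) held a higher peak, beside 0.576%, and 10 a lower one, beside 0.974%. These shares are near those of all autosomal regions. Fam111a held 4 of the higher peaks at the first time, with 102, 35, 31 and 25 reads in the authors' list, and its DEN30_PB values at PH had differed between livers from 43.1 to 860.2.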

How the data were processed

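Rat liver DNA enriched with the MethylMiner kit was sequenced on a SOLiD 4 instrument, per the labels' protocols. Per the file headers, 2 deposited tables, 1 per time, hold a signal for 35 libraries each over the same 17174 regions and the authors' p-value per region from a t-test against the vehicle and phenobarbital group. The deposited signal was scaled by the authors to 50 M over a library total, and a region with no read carries a placeholder of 0.01. Dividing by each library's step gave whole reads (tolerance 0.01) for 100% of the other values. Not given in the sources used here are the aligner, the genome build, the handling of reads with several matches and what the total counts. The deposited peak list gives the authors' read counts per peak and an enrichment factor, a ratio (caller not given in the sources used here). It names 11w where the second region table's name has 10W, and both are read as TE.

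Groups and replicate numbers came from the labels, 5 libraries each. limma 3.58.1 (R 4.3.3) was fitted, with group means and a variance trend, to log2(signal + 1), over all regions with a value of 10 or more in at least 5 libraries, per time or, for TE minus PH, over both tables. Calls used a Benjamini-Hochberg adjusted p of 0.05 over all regions. The script was tested on simulated data. edgeR 4.0.16 and DESeq2 1.42.0 on recovered reads, quantile normalization, a replicate block, other filters and libraries left out were alternatives. The members, gene lists and tests were chosen with earlier results of these data known. Named genes are the 20 highest members, the 5 most and 5 least variable over groups, those called or with the smallest p in a test, those at the threshold and up to 6 per list; genes named in the runs and the 10 places most variable within groups were added after their values were seen. X-linked and unplaced regions were left out by the rule, 21 of which averaged 200 or more. Counting errors cover counting only, since PCR copies cannot be told apart. The member with the smallest p in MC_PB minus MC_water at TE is not reported here.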

Additional observations from a re-analysis of the deposited data

Results flagged for a closer look

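In 143 groups of 5 libraries examined (the share of region reads and 10 members in the 13 groups outside the rule), 17 had 1 library far from the other 4. The 10 members are the 5 highest places and Fam111a, Recql, Ctrb1, Srp72 and Gp1bb, which were chosen after their values were seen. The chance rate of about 1 in 20 does not hold for members so chosen, so the count is a description with no test. For the share of region reads in the set, the library apart was the lowest in APAP1000_PB at PH (replicate 5, 18.5%, others from 25.7%), in TAA45_PB at TE (replicate 4, 20.3%) and in MP100_PB at TE (replicate 3, 21.4%), all of them weakly enriched. In MC_PB at PH replicate 1 was the highest at 29.1%. That library was also the highest of its group for Asmt (1063.8), Ctrb1 (299.1) and Recql (748.8).

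Recql stood apart in the same replicate at both times, with 610.7 in replicate 1 of MC_PB at TE and with 514.0 at TE and 582.4 at PH in replicate 5 of TAA45_PB. Srp72 was low in replicate 3 of APAP1000_PB at TE (57.8) and high in replicate 4 of DEN3_PB at PH (265.4). Ctrb1 was high in replicate 3 of APAP1000_PB at PH (241.0), Gp1bb in replicate 5 of TAA45_PB at PH (494.0) and Asmt in replicate 5 of MP100_PB at PH (1156.8). Odz3 was low in replicate 2 of DEN3_PB at TE (691.5), and Mir539 in replicate 3 of DEN30_PB at TE (469.5), which is weakly enriched.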

How the results depend on the processing

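Every count of members called by a treatment contrast or an F test was 0 and remained 0 under each alternative run: no filter, a pseudocount of 10, quantile normalization, the replicate block, a library number block, edgeR, DESeq2, without the weakly enriched libraries, without libraries 61 to 70, and 1 library left out at a time. For TE minus PH the count of 1 became 0 with no filter on low values, 0 without libraries 61 to 70 and 2 with quantile normalization, which adds Insl3, a hormone of Leydig cells; it ran from 0 to 1 with 1 library left out. The cause was not tested. For Gp1bb the adjusted p ran from 2.8e-05 with quantile normalization to 0.080 with no filter. edgeR gave 0.021 and DESeq2 0.0018. With 1 library left out it ran from 0.0067 to 0.090. With the replicate block it was 0.043, and with the number blocked within each condition, added after seeing the data, 0.0036. The block changed no other call of a member. Same-numbered libraries within a time correlated from -0.61 to 0.76, and same-numbered TE and PH libraries of a condition from -0.38 to 0.68 over all tested regions, where not every pair exceeded 0.1. Over the 30 most variable places the median was 0.80 for the same number, against -0.26 for other numbers. Each group was first centred on its mean. By construction that pulls the values for other numbers below 0 where those for the same number are high. The 0.80 is a hint of pairing from the data and not from the design. The set itself held 2255 regions at a mean of 150 or more and 328 at 300 or more. It held 1281 by the median, 1406 from MC_water at TE (97.5% of the set included), 1156 with each library scaled to its median region, and 1026 to 1456 with 1 library of the rule left out, the highest without the weakly enriched replicate 5. Reads per member were many, so depth set few limits beside the spread between libraries.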
